A study of Mus musculus with 6 samples.

Results

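The clustered protocadherins are a family of cadherin-like adhesion proteins encoded by 3 neighbouring gene clusters, alpha, beta and gamma, on chromosome 18 of the mouse. Here they were taken as the protein-coding genes whose symbol starts with Pcdha, Pcdhb or Pcdhg followed by a number, or by a, b or c and a number. The rule gave 57 of the 54532 gene identifiers in the deposited tables, with 14 in the alpha, 22 in the beta and 21 in the gamma cluster. All 57 lay on the plus strand between 36930184 and 37841873 in GRCm38. The symbol Pcdha11 belonged to 2 identifiers, ENSMUSG00000007440 and ENSMUSG00000102206, which are given apart.

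In the alpha and gamma clusters each gene has its own promoter and its own large variable exon, which holds the extracellular cadherin repeats, and this exon is spliced to a short row of constant exons that all genes of the cluster use for the cytoplasmic tail. Beta genes consist of a variable exon alone and lack that tail. Single neurons switch on small sets of these promoters, with the factor CTCF and cohesin folding the cluster, and the C-type genes at the end of the alpha and gamma clusters are used more uniformly than the other members. The proteins bind copies of themselves on neighbouring cells, which serves self-avoidance of neurites, spacing of axons and dendrites, synapse formation and, for the gamma cluster, the survival of spinal interneurons.

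The libraries were made from cervical spinal cord of C57BL/6 mice. In the 3 mice of the ACD group, allergic contact dermatitis was evoked with squaric acid dibutylester (SADBE), a contact allergen. They had 20 µl of 1% SADBE in acetone daily for 3 days on shaved abdomen skin and, after 5 days, the same dose daily for 3 days on shaved nape skin. The 3 control mice had acetone alone at the challenge, and the labels leave unclear whether they had SADBE on the abdomen before. The model is thus a skin inflammation read in whole cord, a mixture of cell types, in which fewer cells of a type and less RNA per cell cannot be told apart.

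The values were FPKM, which divide a gene's fragments by its exon length and by a measure of library size. Read back from the spacing of the lowest values, that measure was 17346314 to 20245575 in ACD and 16916599 to 18583992 in control libraries. The first principal component held 35.6% of the variance and separated the ACD from the control libraries. Summed neuron markers lay at 1252 to 1269 FPKM in ACD and 1035 to 1262 FPKM in control cords, summed oligodendrocyte markers at 7432 to 8829 FPKM in ACD and 4986 to 7515 FPKM in control cords, and no marker of the lists used was at 0 in all 6 libraries. Summed levels were above every control in every ACD library for 7 oligodendrocyte precursor markers (269 to 292 FPKM in ACD, 198 to 237 in control cords), 8 microglia markers (104 to 114 in ACD, 82.5 to 102 in control cords), 8 sensory ganglion and Schwann cell markers (347 to 496 in ACD, 183 to 268 in control cords) and 4 haemoglobin genes (475 to 763 in ACD, 98.1 to 384 in control cords). Levels of 10 nuclear long non-coding RNAs summed to 117 to 159 FPKM in ACD and 368 to 417 FPKM in control cords. The part of these shifts in any protocadherin value was not tested.

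The exons of the 3 clusters overlap to different degrees, which sets what an FPKM of a member stands for. All 14 alpha genes held the same 2860 bases in 3 constant exon segments, between 37156155 and 37187657. All 21 gamma genes held the same 2116 bases in 3 segments between 37825021 and 37841870. No base was common to all beta genes, and 455 bases lay in more than 1 of them, where Pcdhb21 and Pcdhb22 overlap. The median member kept 46.4% of its exon length free of any other annotated exon in the alpha cluster, its whole length in the beta cluster and 54.8% in the gamma cluster, as the plot of exon bases shows. The submitters' notes name the read counter featureCounts without its settings. The annotated genes Gm42416, Gm37013, Gm37388 and Gm38182 have exons over the gamma constant segments and 0 bases free of other exons on their own strand. Each had 0 reads in every library, and the counting rule itself was not tested. If reads in shared exons were not counted, an alpha or gamma FPKM still divides by the whole exon length. Levels across clusters are therefore given here also per kilobase of unshared exon.

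**Figure D1:**
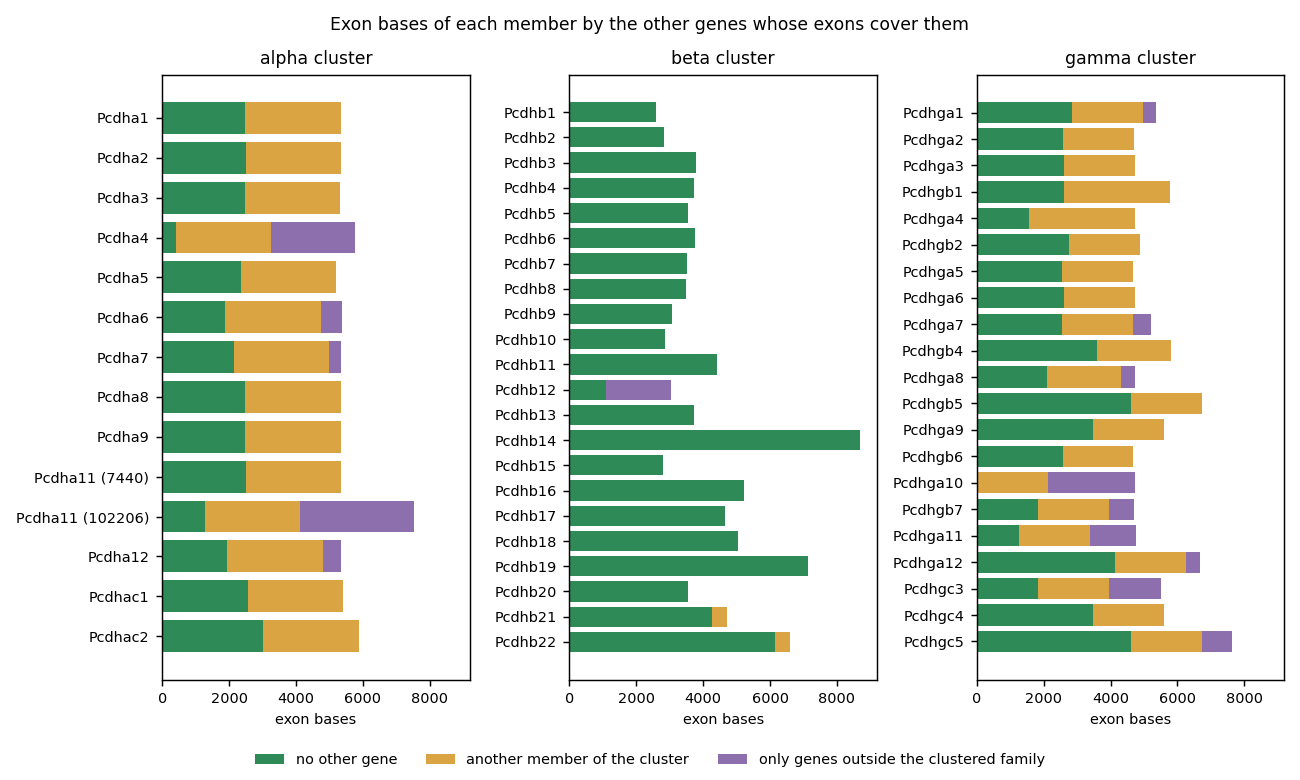
Exon bases of each member, split into bases covered by no other annotated gene, by another member of the cluster, or by genes outside the family alone; members run down the page in chromosome order, and the numbers after Pcdha11 are the ends of its 2 identifiers. Every alpha and gamma bar carries the constant exons, while 19 of the 22 beta bars are unshared over their whole length.

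In the alpha cluster Pcdhac2, a C-type gene needed for the spacing of serotonergic axons, was far above the other members. It had 4.84, 5.41 and 5.90 FPKM in ACD cords, against 5.37, 4.44 and 5.10 FPKM in control cords. The groups overlapped, and this 1 gene held 50.3% of the alpha reads in ACD and 48.3% in control cords. Pcdhac1, the other alpha C-type gene, had 0.787, 0.665 and 0.837 FPKM in ACD and 0.785, 0.516 and 0.904 FPKM in control cords. Pcdha3, next by mean FPKM in control cords, had 0.551, 0.574 and 0.615 FPKM in ACD and 0.599, 0.676 and 0.854 FPKM in control cords, again with overlap. In ACD cords Pcdha9, Pcdha12 and Pcdha5 had higher means than Pcdha3.

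The 9 tested alternate alpha genes, those with a number in place of the C, formed a low and narrow band in FPKM as deposited. Their means ran from 0.321 to 0.833 FPKM in ACD and from 0.328 to 0.710 FPKM in control cords. Neighbours in the control order differed by less than the larger SD of each pair. Each held 10.2% to 25.5% of its unshared 50-base words in common with other genes, so reads can be ambiguous between these near copies. The C-type genes shared none of theirs.

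Beta genes carry no constant tail, and how they stood against the alpha genes depended on the length used. In control cords 13 of 22 beta members averaged at least 1 FPKM as deposited, against 1 of 14 alpha members. Per kilobase of exon that no other gene shares, 14 beta and 9 alpha members reached 1 on the same scale of reads. There the tested beta genes had a median of 1.26 (0.337 to 2.66) and the tested alternate alpha genes one of 1.34 (0.790 to 1.69). Pcdhb17 had 3.03, 2.90 and 2.69 FPKM in ACD and 2.82, 2.54 and 2.61 FPKM in control cords. Pcdhb9 had 2.91, 2.55 and 3.53 FPKM in ACD and 2.71, 2.78 and 2.32 FPKM in control cords. Pcdhb20 had 2.04, 2.53 and 2.14 FPKM in ACD and 1.83, 2.40 and 2.90 FPKM in control cords. The groups overlapped in each. In ACD cords every Pcdhb20 value lay below every value of Pcdhb17 and Pcdhb9, while in control cords the ranges of the 3 genes overlapped one another. Together they held 25.9% of beta reads in ACD and 24.4% in control cords. The other 18 tested beta genes ran down to Pcdhb4, at 0.443 ± 0.102 FPKM in ACD and 0.337 ± 0.0401 FPKM in control cords (SD, n = 3).

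In FPKM as deposited, the gamma cluster was led by the C-type genes Pcdhgc4 and Pcdhgc3. Pcdhgc4, the gamma isoform that spinal neurons need to survive, had 3.53, 3.78 and 4.48 FPKM in ACD and 3.33, 2.46 and 3.70 FPKM in control cords. Pcdhgc3, which binds the Wnt pathway scaffold Axin1, had 3.90, 3.38 and 3.96 FPKM in ACD and 3.13, 2.37 and 3.52 FPKM in control cords. The lowest control value of both was that of control 2, and the groups overlapped. Pcdhgc5, which binds GABA type A receptors, was lower, at 1.01, 1.06 and 1.38 FPKM in ACD and 0.977, 0.811 and 1.18 FPKM in control cords. The B-type Pcdhgb6 ranked next after Pcdhgc4 and Pcdhgc3, at 1.87, 2.09 and 2.67 FPKM in ACD and 2.32, 2.07 and 2.35 FPKM in control cords. The 11 tested A-type genes averaged 0.306 to 1.68 FPKM in ACD and 0.339 to 1.58 FPKM in control cords. The 6 B-type genes averaged 0.525 to 2.21 FPKM in ACD and 0.686 to 2.25 FPKM in control cords.

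**Figure D2:**
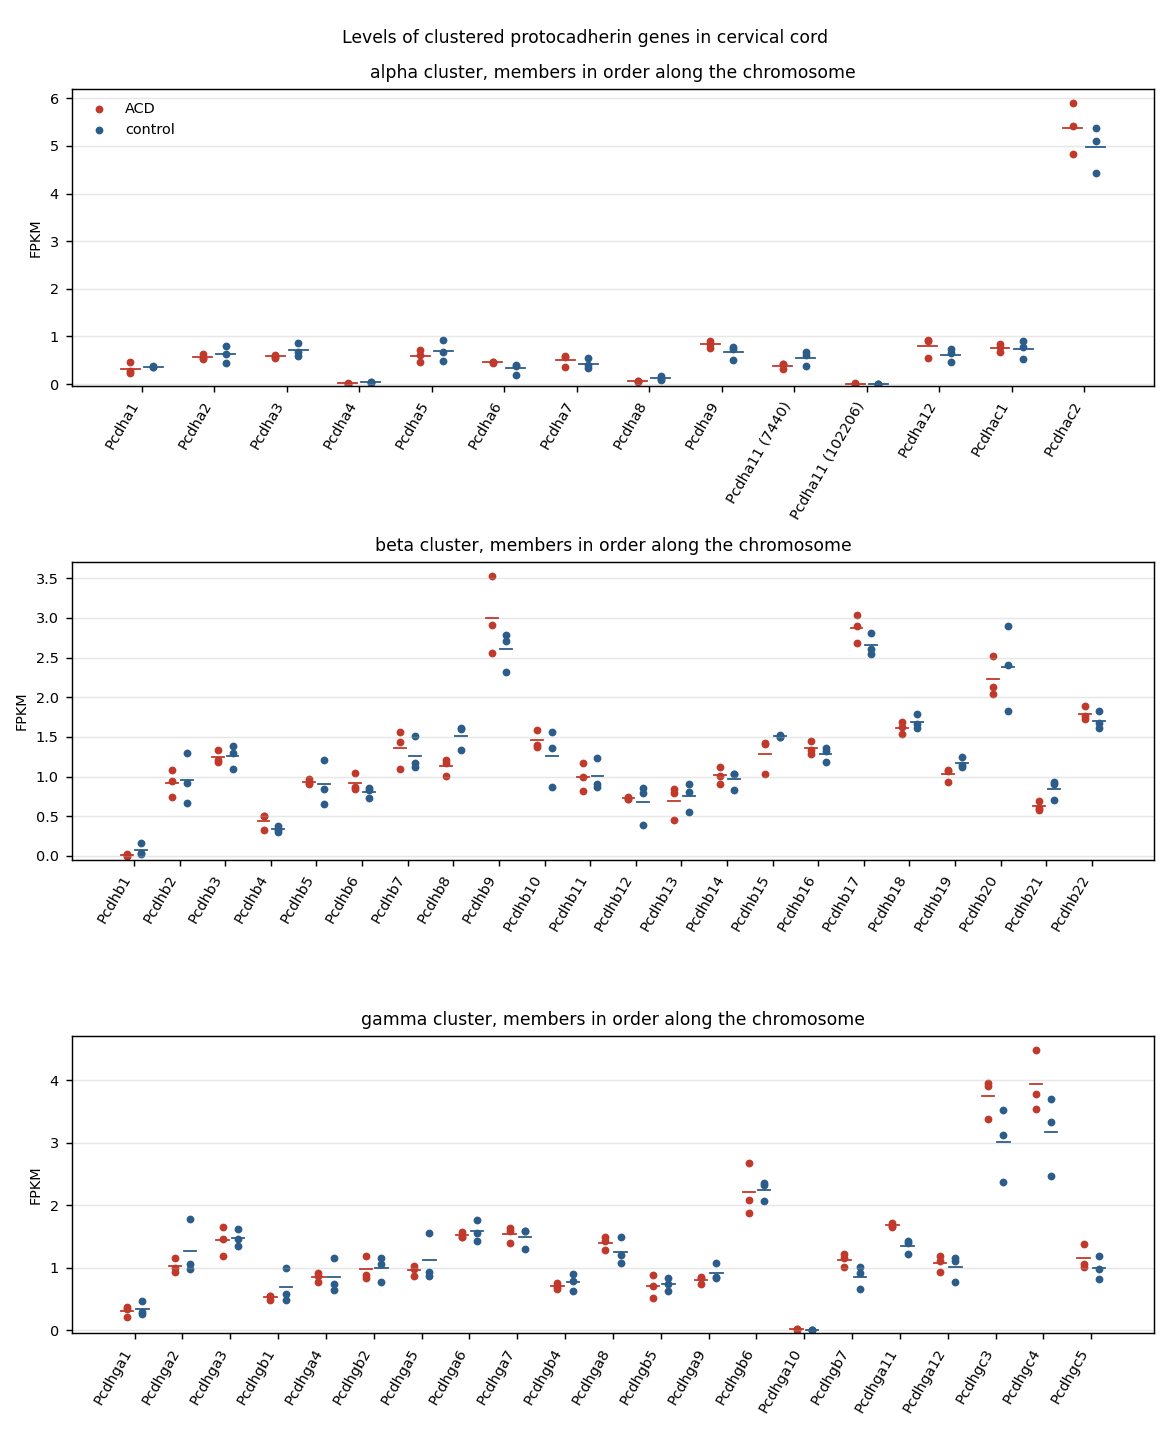
FPKM of each member by library, with points for ACD (red, left) and control (blue, right) cords and a line at the mean of 3 libraries; members stand in chromosome order, and each panel has its own scale. Pcdhac2 near 5 FPKM, Pcdhgc4 and Pcdhgc3 above 3 FPKM and Pcdhb17, Pcdhb9 and Pcdhb20 lead their clusters in control cords.

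Per kilobase of exon that no other gene shares, Pcdhac2 was at 10.5 ± 1.04 in ACD and 9.67 ± 0.930 in control cords (reads scaled as in FPKM, SD, n = 3). Pcdhgc3 was at 11.3 ± 0.964 in ACD and 9.08 ± 1.77 in control cords on that scale. Its control value depends on strand: it is 4.89 when exons of the antisense gene BC037039 are not counted as shared, which the sources used here do not settle. Pcdhgc4 was at 6.33 ± 0.794 in ACD and 5.09 ± 1.02 in control cords on the same scale. The highest A-type gamma mean in control cords was 5.11 on this scale. A-type values depend on strand too. The 12 A-type genes summed to 27.2 ± 3.91 in control cords, and to 23.3 ± 3.70 with opposite-strand exons not counted as shared. On the unshared scale the clusters summed to 24.3 ± 2.65 in ACD and 23.5 ± 2.48 in control cords for alpha. Beta summed to 29.1 ± 1.46 in ACD and 29.0 ± 1.45 in control cords, and gamma to 59.4 ± 4.46 in ACD and 54.9 ± 8.08 in control cords. The gamma sum also depends on strand. With exons on the opposite strand not counted as shared, it was 48.7 ± 4.22 in ACD and 46.1 ± 7.03 in control cords. Alpha was then at 23.5 in ACD and 22.9 in control cords, and beta at 27.9 in both. As deposited, the alpha FPKM summed to 11.3 ± 1.23 in ACD and 10.9 ± 1.14 in control cords. Those of beta summed to 27.7 ± 1.44 in ACD and 27.6 ± 1.11 in control cords, and those of gamma to 27.7 ± 2.45 in ACD and 26.1 ± 3.82 in control cords. On both scales the ACD and control libraries overlapped in every cluster, and on the unshared scale the gamma cluster was the highest in all 6 libraries. The small ratios of the summed FPKM turned under TPM scaling, from 0.05 to -0.05 (log2) for alpha, from 0.001 to -0.096 for beta and from 0.08 to -0.01 for gamma. Under the same scaling the median log2 fold change over all genes tested moved from -0.01 to -0.10.

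Of the 57 members 5 fell below the mean of 0.1 FPKM needed for the test, namely Pcdha4, Pcdha8, Pcdha11 (ENSMUSG00000102206), Pcdhb1 and Pcdhga10. Pcdhga10 had 2, 1 and 2 reads in ACD and 0, 0 and 0 in control cords, and 0 of its 4732 exon bases were free of other exons. Pcdha4 had 1, 2 and 1 reads in ACD and 4, 3 and 4 in control cords, with 404 of 5768 bases unshared. Pcdha11 (ENSMUSG00000102206) had 1, 0 and 2 reads in ACD and 0, 0 and 0 in control cords, with 1268 of 7535 bases unshared. These 3 were the members whose exons lay most under other annotated genes, and the part of that overlap in their low values was not tested. Pcdha8 had 5, 4 and 7 reads in ACD and 7, 10 and 16 in control cords, although 2478 of its bases were unshared. Pcdhb1, unshared over all 2588 bases, had 0, 0 and 1 reads in ACD and 7, 2 and 1 in control cords. At these counts no difference between the groups was tested.

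The comparison of ACD with control cords asked whether any member changed in the cord when the nape skin was inflamed. With limma on log2(FPKM + 0.1), 0 of 11 alpha, 0 of 21 beta and 0 of 20 gamma members passed an adjusted p of 0.05, beside 4.34% of the 21369 genes tested (1.81% higher and 2.53% lower in ACD). The 927 genes called in the whole table were 386 higher and 541 lower, a split that became 205 and 695 under TPM scaling and 149 and 352 once log exon length and base composition had been regressed out of each library. On recovered reads with voom 0 members passed as well, beside 7.93% of 20532 genes. Without adjustment, limma put 2 of 52 members (3.85%) under a p of 0.05, beside 22.3% of all genes, and voom put 4 (7.69%) there, beside 24.0%. The ACD and control libraries did not overlap in 7 of 52 tested members (13.5%), beside 28.6% of all genes. These were Pcdha6, Pcdhgb7 and Pcdhga11, higher in ACD, and Pcdhb8, Pcdhb15, Pcdhb19 and Pcdhb21, lower in ACD.

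The differences were small in both directions. Of the log2 fold changes 26 lay above 0 and 26 below, between -0.41 and 0.41. The median was 0.07 in the alpha, 0.07 in the beta and -0.03 in the gamma cluster, beside -0.01 over all genes tested. After TPM scaling the medians were -0.01, -0.03 and -0.13, beside -0.10 over all genes. For 50 of 52 members the 95% interval of the difference lay inside a 2-fold change in either direction, with Pcdha6 and Pcdha11 (ENSMUSG00000007440) the exceptions. The median SE of the members was 0.19, beside 0.15 for all genes and 0.11 for tested protein-coding genes. The median control level was 0.994 FPKM for tested members and 4.61 FPKM for tested protein-coding genes. At this wider SE and with 3 mice a group small shifts can go undetected.

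**Figure D3:**
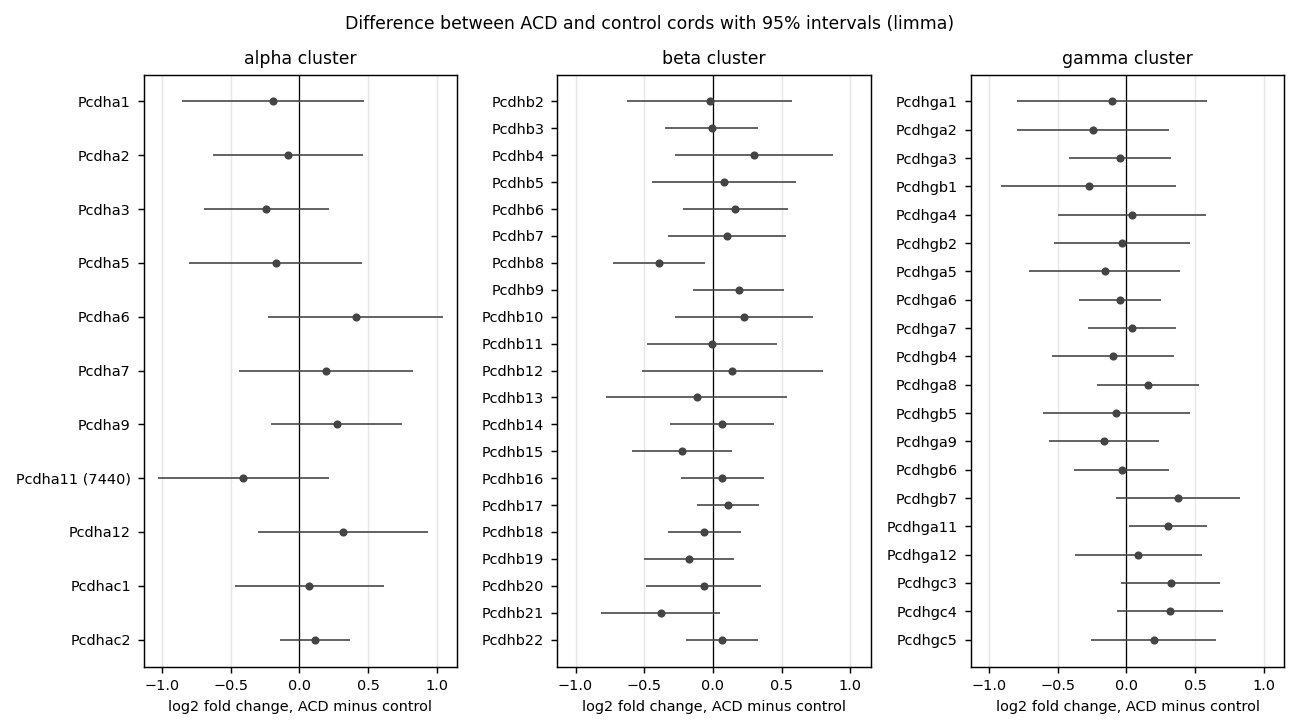
Difference of each tested member in log2(FPKM + 0.1), control subtracted from ACD, with its 95% interval from limma; members run down the page in chromosome order. The 11 alpha, 21 beta and 20 gamma members lie on both sides of 0, between -0.41 and 0.41, and 2 intervals, those of Pcdhb8 and Pcdhga11, leave 0 outside.

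The member with the smallest p was Pcdhb8, at 1.01, 1.18 and 1.21 FPKM in ACD and 1.34, 1.61 and 1.61 FPKM in control cords. All ACD values lay under all control values, with a log2 fold change of -0.39 (SE 0.14, adjusted p = 0.167). Next was Pcdhga11, an A-type gamma gene, at 1.72, 1.67 and 1.66 FPKM in ACD and 1.43, 1.22 and 1.39 FPKM in control cords. All its ACD values lay above the control values, with a log2 fold change of 0.30 (SE 0.12, adjusted p = 0.198). Exons of the antisense gene Gm26672 lie over part of Pcdhga11, and reads of the 2 cannot be told apart without strand; Gm26672 itself was listed with 4, 7 and 6 reads in ACD and 6, 16 and 8 in control cords. Pcdhb21 had 0.576, 0.693 and 0.604 FPKM in ACD and 0.704, 0.926 and 0.907 FPKM in control cords (log2 fold change -0.38, SE 0.18, adjusted p = 0.278). Its groups did not overlap, with ACD 2 and control 1 almost level.

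Other members with the smallest p of their cluster and direction were further from the threshold. In the alpha cluster Pcdha6 had 0.462, 0.442 and 0.458 FPKM in ACD and 0.408, 0.201 and 0.376 FPKM in control cords (0.41, SE 0.27, adjusted p = 0.424). Control 2 had the lowest value, and the other libraries lay close together. Pcdha9 had 0.766, 0.832 and 0.901 FPKM in ACD and 0.742, 0.514 and 0.788 FPKM in control cords (0.27, SE 0.20, adjusted p = 0.483). Pcdha11 (ENSMUSG00000007440) had 0.312, 0.424 and 0.418 FPKM in ACD and 0.375, 0.683 and 0.603 FPKM in control cords (-0.41, SE 0.26, adjusted p = 0.414). Both overlapped, as did Pcdha3 (-0.24, SE 0.19, adjusted p = 0.520). In the beta cluster Pcdhb9 (0.19, SE 0.14, adjusted p = 0.486) and Pcdhb4 (0.30, SE 0.24, adjusted p = 0.523) were the members above 0 with the smallest p. In the gamma cluster Pcdhga2 (-0.24, SE 0.23, adjusted p = 0.587) and Pcdhgb1 (-0.28, SE 0.27, adjusted p = 0.590) were those below 0. Control 3 had the highest value of both gamma genes, 1.77 FPKM for Pcdhga2 and 0.998 FPKM for Pcdhgb1, and without it Pcdhga2 was at 0.01.

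Among the leading genes by level, the log2 fold change of Pcdhac2 was 0.11, with an interval from -0.14 to 0.37, that of Pcdhb17 was 0.11, from -0.11 to 0.33, and that of Pcdhgb6 was -0.04, from -0.38 to 0.31. For Pcdhb20 it was -0.07, from -0.49 to 0.35.

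The 5 C-type genes had log2 fold changes above 0, and none passed. They were 0.07 for Pcdhac1 (SE 0.23, adjusted p = 0.884), 0.11 for Pcdhac2 (SE 0.11, adjusted p = 0.579), 0.32 for Pcdhgc3 (SE 0.15, adjusted p = 0.269), 0.32 for Pcdhgc4 (SE 0.16, adjusted p = 0.307) and 0.20 for Pcdhgc5 (SE 0.19, adjusted p = 0.585). Pcdhac1 was at -0.01 after TPM scaling and -0.13 without control 2, and Pcdhgc3 and Pcdhgc4 were at 0.17 and 0.15 without control 2.

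As a share of the gamma reads, the 3 gamma C-type genes made up 35.9%, 33.5% and 35.4% in ACD cords, against 32.3%, 27.5% and 30.7% in control cords. The groups did not overlap, with means of 34.9% ± 1.30 in ACD and 30.2% ± 2.46 in control cords (SD, n = 3). As a share of the summed gamma FPKM the values were 32.9%, 30.4% and 32.3% in ACD and 29.4%, 24.8% and 27.8% in control cords, which do not overlap either. The A-type genes held 43.2% ± 1.61 in ACD and 46.0% ± 1.46 in control cords, and the B-type genes 21.9% ± 1.30 in ACD and 23.9% ± 1.18 in control cords, both with overlap. Alpha C-type genes held 56.9% ± 0.912 of alpha reads in ACD and 54.7% ± 1.18 in control cords, with overlap. The gamma C-type share was picked out after its values were seen, among 5 shares that sum to a fixed total within each cluster, and it has no test. The summed FPKM of the 3 genes, 8.82 ± 0.867 in ACD and 7.16 ± 1.40 in control cords, overlapped. The marker sums of oligodendrocyte precursors, microglia, sensory ganglion and Schwann cells and blood given above separated the libraries in the same way, and their part in this share was not tested.

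**Figure D4:**
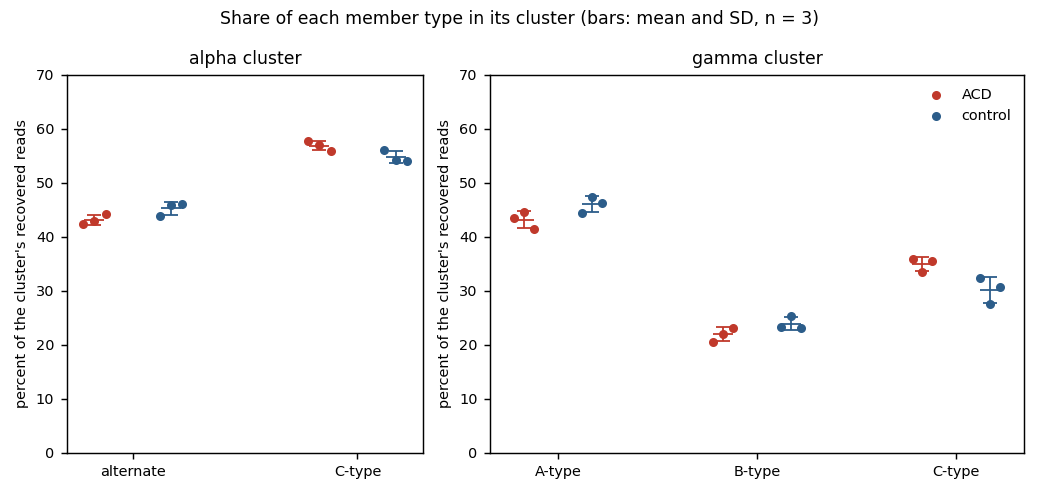
Share of each cluster's recovered reads, in percent, held by alternate and C-type genes (alpha) and by A-, B- and C-type genes (gamma), with a point per library and bars for mean and SD (n = 3), ACD in red at the left of control in blue. The gamma C-type share is the set without overlap, at 33.5% to 35.9% in ACD and 27.5% to 32.3% in control cords.

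Genes that control promoter choice in these clusters did not pass the test. Of 20 such genes 0 rose and 0 fell, beside 4.34% of all genes tested, with a median log2 fold change of -0.07. A list this short, like those below, would hold few calls at that share. The 20 genes summed to 185 to 188 FPKM in ACD and 186 to 188 FPKM in control cords, with overlap. Ctcf, the architectural factor that binds the protocadherin promoters and enhancers, was at 11.96 ± 0.393 FPKM in ACD and 11.8 ± 0.264 FPKM in control cords (0.02, SE 0.06, adjusted p = 0.852). Smchd1, a chromatin protein that represses clustered protocadherins, was at 1.78 ± 0.0956 FPKM in ACD and 1.87 ± 0.0720 FPKM in control cords (-0.07, SE 0.11, adjusted p = 0.751). The smallest p was that of Hnrnpu, a nuclear matrix protein, at 25.3 ± 0.765 FPKM in ACD and 29.2 ± 0.656 FPKM in control cords (-0.20, SE 0.06, adjusted p = 0.0965).

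Among 24 genes for binding partners, cleavage and downstream signalling 2 rose and 1 fell, with a median of 0.10. Over all genes tested 4.34% were called. The 24 genes summed to 642 to 646 FPKM in ACD and 562 to 597 FPKM in control cords, without overlap. Brk1, a small subunit of the WAVE actin-regulating complex that protocadherin tails recruit, rose to 93.8 ± 3.12 FPKM in ACD, against 71.5 ± 7.05 FPKM in control cords (0.40, SE 0.08, adjusted p = 0.0473). Macf1, a linker of microtubules and actin, fell to 14.3 ± 0.153 FPKM in ACD, against 18.5 ± 0.993 FPKM in control cords (-0.36, SE 0.06, adjusted p = 0.0298). Out of 14 alternative settings, Brk1 passed in 4 and Macf1 in 8.

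Of 20 tested non-clustered protocadherins and atypical cadherins 1 fell and 0 rose, beside 4.34% of all genes, with a median of -0.05. It was Celsr3, a seven-pass cadherin of the planar polarity pathway that guides axon tracts. It had 2.38, 2.53 and 2.83 FPKM in ACD, against 5.34, 4.46 and 5.24 FPKM in control cords (-0.93, SE 0.11, adjusted p = 0.0110), and it passed in all 14 alternative settings. Of 22 classical cadherins and catenins 0 passed, with a median of 0.04 and the smallest p for Ctnnb1, beta-catenin, at 74.6 ± 0.735 FPKM in ACD and 63.4 ± 3.99 FPKM in control cords (0.24, SE 0.07, adjusted p = 0.0960). These 22 genes summed to 224 to 234 FPKM in ACD and 205 to 214 FPKM in control cords, without overlap. The non-clustered and atypical genes, 21 with values, summed to 108 to 113 FPKM in ACD and 109 to 127 in control cords, with overlap.

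In the marker lists outside the nuclear RNAs at most 1 gene passed per list, beside 4.34% of all genes tested. Lists this short would hold few calls at that share. No neuron marker passed out of 13 (median 0.11), with the inhibitory transporter Slc32a1 nearest (0.44, adjusted p = 0.0847). Of 10 astrocyte markers (median 0.12) 1 rose, the filament gene Gfap (0.48, limma adjusted p = 0.0332). Of 8 microglia markers (median 0.28) 1 rose, Tmem119 (0.53, limma adjusted p = 0.0394). Out of 14 alternative settings, Gfap passed in 6 and Tmem119 in 5. No marker passed of 9 for oligodendrocytes (median 0.31, Cldn11 adjusted p = 0.133), 7 for their precursors (0.24, Gpr17 adjusted p = 0.0540), 6 for ependyma (-0.03, Rarres2 adjusted p = 0.258), 8 for meninges (0.23, Col1a1 adjusted p = 0.0886), 8 for endothelium (-0.24, Tie1 adjusted p = 0.210), 7 for sensory ganglion and Schwann cells (0.61) or 4 for haemoglobin (1.22, Hbb-bs adjusted p = 0.131). Of 9 nuclear long non-coding RNAs 7 fell (median -1.20), among them Meg3 (-1.70, adjusted p = 0.00417), Miat (-1.29, adjusted p = 0.00508) and Malat1 (-2.33, adjusted p = 0.00873).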

How the data were processed

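The authors deposited FPKM values, 1 table per library with 54532 Ensembl identifiers, as the values show. Per the submitters' processing notes, the build was mm10 and the tools were DESeq2 1.16.1, featureCounts 1.5.0-p3 and HISAT2 2.0.5. Their roles, the annotation release, strand setting and multi-mapping rules were not given in the sources used here. GENCODE M21 (GRCm38) gave exons, coordinates and gene types. Pcdhgb8, a polymorphic pseudogene there, was left out of the members.

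Genes averaging 0.1 FPKM or more were tested with limma 3.58.1 in R 4.3.3 (lmFit, eBayes with trend and robust settings, two-sided) on log2(FPKM + 0.1), ACD minus control, with Benjamini-Hochberg adjustment over all 21369 genes and a threshold of 0.05. This scale understates changes of low genes. Whole reads were recovered from FPKM, exon length and a denominator per library, within 0.05 of a whole number for 96.9% of values above 0 and for every value of the 57 members; voom on these reads was an alternative. Recovered reads summed to 1.04 to 1.07 times the denominator in ACD and 0.976 to 1.03 times in control libraries. A tested member rested on a mean of 26.5 to 553 reads, and a value of 0 allows up to 3 reads, for counting error only. The fit was tested on simulated data with the same dispersion for every gene, whose spread can differ from that of these libraries.

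Each library was taken as 1 mouse, since the labels call them biological replicates. The members and lists were chosen with earlier results of these data known. Named in full were, per cluster, the 3 highest in control cords, the 2 smallest p in each direction and the C-type genes; for each list, up to 3 passing genes by p or else the 1 with the smallest p; and Ctcf, Smchd1 and Celsr3. Some genes that this rule covers are not reported here. Pcdhgb7, Pcdhb15, Pcdhb19 and the untested members were named for completeness, after their values were seen. Alternatives were other pseudocounts (1, 0.01) and filters (none, 0.5 FPKM), TPM scaling, removal of a length and GC trend, voom, the replicate block, each library left out and, for summed levels, reads per kilobase of unshared exon.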

Additional observations from a re-analysis of the deposited data

How the results depend on the processing

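No member passed in any of 14 alternative settings, and the lowest adjusted p in any was 0.120, for Pcdhb8. Of 722 member values 9 moved by at least 1 SE, and 26 of 52 members kept their sign in every setting, 16 above and 10 below 0. The 927 calls over all genes became 556 without a filter, 501 with length and GC trends regressed out, 1628 with voom and 180 to 627 with 1 library left out, lowest without ACD 3. The replicate block gave 181 calls over all genes and 0 members. Same-numbered libraries had correlations of -0.028, 0.015 and 0.003 in their deviations from the group means. Such values show no shared shift but cannot tell whether the numbers pair mice, which the labels do not say. The beta median of 0.066 was -0.025 under TPM scaling, -0.000 after the trend was removed and -0.070 to 0.082 with 1 library left out. The beta summed ratio of 0.001 (log2) was -0.096 under TPM scaling. TPM scaling divides each library by its summed FPKM over all genes, 297035 to 313140 in ACD and 279996 to 299956 in control libraries. With it the median over all genes tested moved from -0.010 to -0.104. The cause of the moves in the other settings was not tested. Depth and 3 mice a group limit low members: the 5 untested ones had at most 16 reads in a library.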

Other observations

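Between the first and last base of the 3 clusters lay 28 other annotated genes, of which 6 were tested, 0 passed and 9 were at 0 in all libraries. The examples here were picked after their values were seen. The long non-coding gene 3222401L13Rik, between the beta and gamma clusters at 37655451 to 37661742, had 31, 46 and 36 reads in ACD and 59, 81 and 49 in control cords. Its groups did not overlap, with a log2 fold change of -0.65 (SE 0.23, limma adjusted p = 0.161). Gm10544, on the minus strand at 37159854 to 37178522, lay within the span of the alpha constant exons, though its own exons covered none of them. This gene was below the filter and had 3, 2 and 1 reads in ACD and 14, 18 and 14 in control cords. Taf7, a general transcription factor gene between the beta and gamma clusters, was at 4.57, 4.86 and 4.55 FPKM in ACD and 4.10, 4.58 and 4.31 FPKM in control cords, with overlap (log2 fold change 0.11, SE 0.08, limma adjusted p = 0.487). Pcdhgb8, the annotated pseudogene inside the gamma cluster, had 27, 25 and 35 reads in ACD and 26, 28 and 27 in control cords, with overlap.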
